A study of Caenorhabditis elegans with 12 samples.

Results

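To ask what the 5MER peptide does to gene expression when human Aβ is knocked down, ABPS worms (Aβ RNAi, 5MER peptide) were compared with AB0S worms (Aβ RNAi, no peptide). The comparison rests on 6 of the 12 RNA-seq libraries, 3 of each group, and on all 19089 genes of the deposited table, none of which was chosen by its values. All worms were of strain CL2006, in which the unc-54 promoter drives human Aβ in body wall muscles and a plasmid carrying rol-6 marks the transgene, so that ABPS and AB0S worms both carry Aβ. The 5MER is a short synthetic peptide derived from a variant of human CD44. ABPS and AB0S worms were fed, over 2 generations, bacteria that express double-stranded RNA toward Aβ, and EVPS and EV0S worms were fed bacteria harbouring the empty vector (EV). Second-generation ABPS and EVPS worms were then placed in the peptide at day 1 of adulthood, AB0S and EV0S worms in M9 buffer, and the same treatment was supplemented every day until pools of whole worms were harvested at day 6. Each group had 3 independent repeats. The Aβ transgene is not among the listed genes, so the knockdown itself was not checked here.

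Worms that produce Aβ in muscle become paralysed with age, and chaperones, the proteasome, lysosomes and autophagy are the systems that are known to counter protein aggregates. Hermaphrodites of C. elegans make sperm before they make oocytes, store it in the spermatheca and use it up during adulthood. Their cuticle is built of collagens secreted by the hypodermis, and several collagens, ROL-6 among them, determine body shape. RNA of whole worms sums all of these tissues, so fewer cells of a type and less RNA per cell cannot be told apart in any result.

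The values are read counts per gene that the authors normalized and then corrected for the repeats, and they are given here as normalized values on a linear scale. The sequencing depth is unknown. Per-library sums of the values were 28115687.4, 28604143.5 and 28841259.4 in ABPS libraries, against 26197695.4, 27157096.9 and 26874051.0 in AB0S libraries. Every ABPS sum thus lay above every AB0S sum, and the part of this in small, even differences was not tested beyond the rescaled medians given below. No marker of muscle, intestine, neurons, hypodermis, oocytes or sperm was at 0 in any of these 6 libraries. EV0S replicate 3 and, to a lesser extent, ABPS replicate 2 deviated most from the mean of their group. In 15516 genes whose mean value was 10 or more, the SD of the log2 deviation from the group mean was 0.277 in ABPS replicate 2, against 0.138 and 0.241 in ABPS replicates 1 and 3. It was 0.387 in EV0S replicate 3, the largest of the 12 libraries, against 0.247 and 0.203 in EV0S replicates 1 and 2. By this measure ABPS replicate 2 lay only slightly beyond ABPS replicate 3.

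The direct test of the comparison called 0 of 19089 genes (0.0%) at an adjusted p below 0.1 in a limma fit of all 12 libraries with the replicate number as a block, where the smallest adjusted p was 0.279. Without adjustment, 1787 genes (9.36%) were higher and 1247 genes (6.53%) lower in ABPS than in AB0S worms at p below 0.05. The count differed between fits of different libraries. A limma fit of the 6 ABPS and AB0S libraries alone called 1661 genes higher (8.7%) and 766 lower (4.01%) in ABPS worms. Without EV0S replicate 3, which takes no part in the comparison itself, the fit of the remaining 11 libraries called 2010 genes higher (10.5%) and 1075 lower (5.63%), and 2191 genes were called by both of these fits. Without ABPS replicate 2, the fit of 11 libraries called 653 genes higher and 67 lower. As no gene passed the test of all 12 libraries, genes are described below by the values of each library, by whether the groups overlapped, and by their call in the 6-library fit. The 3 ABPS values lay above all 3 AB0S values in 2835 genes (14.9%) and below them in 2771 genes (14.5%), and these shares are the background for the counts over gene lists. For the list counts of the 6-library fit, the background is the 8.7% higher and 4.01% lower given above. The median log2 fold change over all genes was -0.02, and all fold changes are on the scale of log2(value + 1), which understates the change of genes with low values.

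The genes with the smallest p whose groups did not overlap were of mixed function. cah-4, which encodes a carbonic anhydrase (WBGene00000282, chromosome X, 13542574 to 13544599 in WBcel235), had values of 1906, 2194 and 1702 in ABPS worms, against 1242, 1193 and 1277 in AB0S worms. Its log2 fold change was 0.64 ± 0.09 (SE), and its adjusted p was 0.279 in the limma fit of 12 libraries and 0.014 in that of 6 libraries. ost-1, which encodes the basement membrane protein SPARC (WBGene00003893, chromosome IV, 1107396 to 1110872), was the most even of the leading genes. Its values were 9390.1, 9333 and 9402 in ABPS worms, against 7029, 6918 and 7145 in AB0S worms. The log2 fold change was 0.42 ± 0.08 (SE of the limma fit of 12 libraries), with an adjusted p of 0.0059 in that of 6 libraries. Within each group, the values of ost-1 nearly coincided. cnc-8, a member of the caenacin family of antimicrobial peptides, had values of 588, 616 and 559 in ABPS worms, against 409, 432 and 407 in AB0S worms. htas-1, a histone H2A variant of sperm, had 81.0, 54.5 and 88.9 in ABPS worms, against 38.8, 27.5 and 36.1 in AB0S worms. The remaining genes of this group that were higher in ABPS worms, with no overlap, were lips-17 of the lipase-related family (0.70 on the log2 scale), the astacin metalloprotease gene nas-3 (1.46) and C15F1.1, R07E5.4, D2092.4, K08F8.5, Y51F10.7 and F41D9.2, with log2 fold changes of between 0.31 and 1.03.

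Among the genes that were lower in ABPS worms, atg-2 had the smallest p (WBGene00019748, chromosome X, 6806763 to 6817266). ATG-2 transfers lipids to growing autophagosomes. Its values were 1963, 2036 and 2009.6 in ABPS worms, against 2695, 2551 and 2579.7 in AB0S worms, and its log2 fold change was -0.38 ± 0.05 (SE; limma, adjusted p = 0.279 with 12 libraries and 0.012 with 6). wdfy-3, whose mammalian relative acts in selective autophagy, also had no overlap, with 1875, 1908 and 2039 in ABPS worms, against 2556, 2229 and 2479 in AB0S worms. endu-2, which encodes a secreted endoribonuclease, had 1542, 1444 and 1497 in ABPS worms, against 2378, 1835 and 2306 in AB0S worms. AB0S replicate 2 was the lowest of the AB0S libraries for both wdfy-3 and endu-2 and still lay above every ABPS library. The receptor genes in this group were mgl-2, a metabotropic glutamate receptor (-0.56 on the log2 scale), and gcy-19, a receptor-type guanylyl cyclase (-0.62). The C-type lectin genes clec-70 and clec-69, the second of which the annotation lists as a pseudogene, had log2 fold changes of -0.74 and -1.49. dod-3, named as a gene downstream of DAF-16, had 168, 171 and 137.1 in ABPS worms, against 268, 229 and 276 in AB0S worms. The others were sea-2, F35E12.9, T16G1.7 and Y105C5B.25, of which Y105C5B.25 had the largest fold change (-2.13 ± 0.35 on the log2 scale) at low values of 3.60, 3.69 and 4.42 in ABPS worms, against 25.6, 19.7 and 16.8 in AB0S worms. Of the genes in this and the previous paragraph, R07E5.4, K08F8.5, mgl-2, sea-2, wdfy-3 and Y105C5B.25 overlap another annotated gene on the same strand, which leaves these values uncertain.

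**Figure D1:**
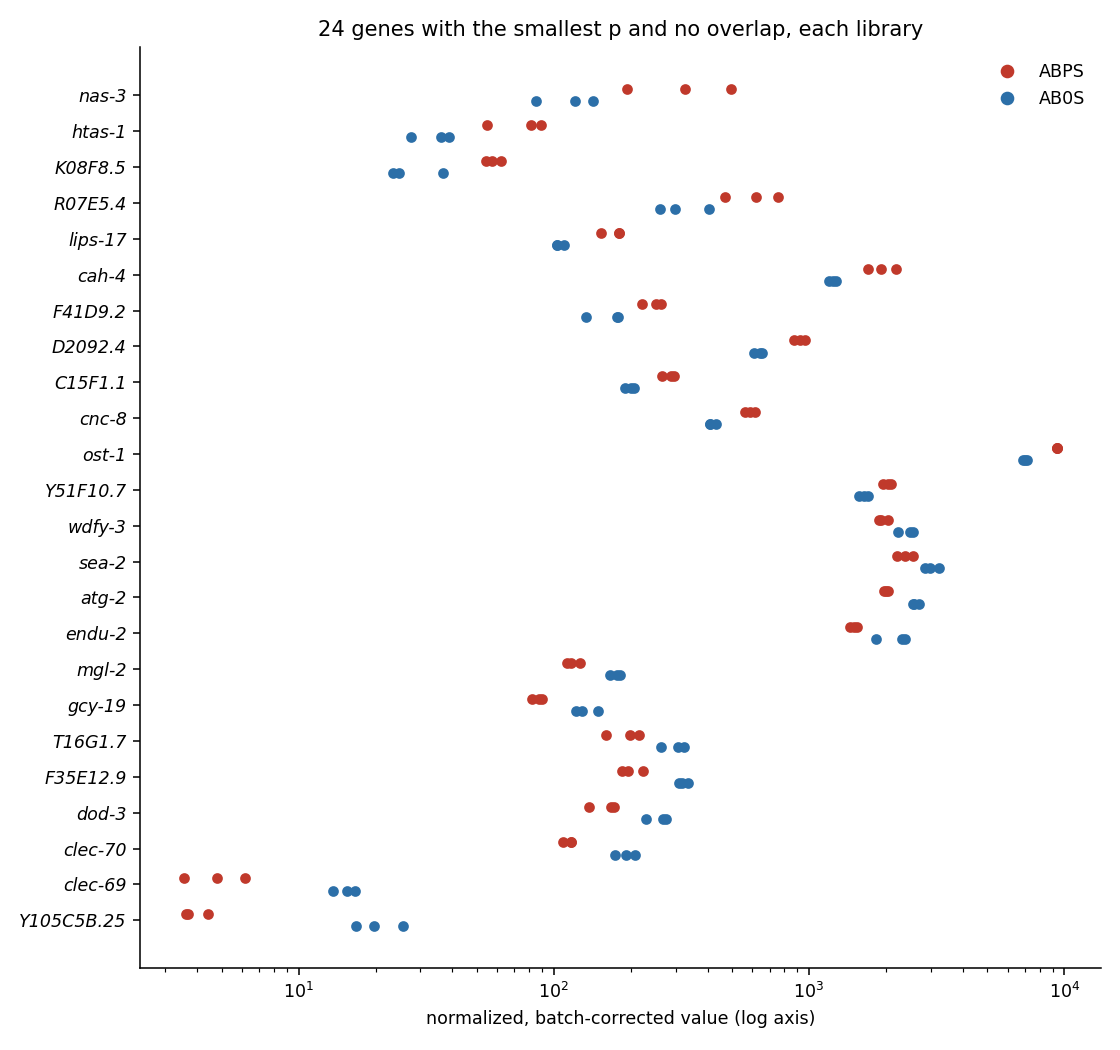
Normalized values (log axis) of the 24 genes with the smallest p and no overlap between groups, 12 higher and 12 lower in ABPS worms; each point is 1 library, with ABPS in red above AB0S in blue. The points of ost-1 within a group nearly coincide, and the red and blue points of every gene are separate because the rule chose genes without overlap.

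Ordered by fold change instead, the genes higher in ABPS worms included cuticle and sperm genes. At a mean of at least 20, the 8 with the largest fold change and no overlap were the collagen genes col-63, col-138 and col-79, rol-1, whose mutants roll, the sperm gene msp-63, and nas-3, E01G4.6 and F13E9.5, with log2 fold changes of between 1.39 and 1.49. For col-63 the values were 1505, 913 and 2149 in ABPS worms, against 474, 476 and 612 in AB0S worms. ABPS replicate 2 was the lowest of the 3 ABPS libraries for col-63, col-138, col-79, rol-1 and msp-63. The 8 genes with the largest fold change in the other direction were R05A10.1, oac-18, srw-85, C33D9.5, F46A8.1, pqn-71, C10F3.7 and fbxc-41, and the annotation lists 4 of these (oac-18, C33D9.5, F46A8.1 and fbxc-41) as pseudogenes. Their log2 fold changes lay between -1.96 and -1.31. oac-18, of the O-acyltransferase family, had 30.5, 31.4 and 28.6 in ABPS worms, against 92.0, 85.8 and 78.5 in AB0S worms, and srw-85, of a chemoreceptor family, had 68.2, 69.2 and 48.6 in ABPS worms, against 209, 128.9 and 173 in AB0S worms.

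The sperm genes formed the list with the highest median. Major sperm proteins (MSP) form the cytoskeleton that moves nematode sperm and signal to oocytes, and the msp genes are near-identical copies among which reads can be split in ways that are not known, so their values are best read together. Of 32 listed msp genes, 29 lay higher in ABPS worms without overlap and 0 lower, and the median log2 fold change was 1.18. The summed values of the msp genes were 13320.0, 6233 and 17469.7 in ABPS libraries, against 4749, 4847 and 5330.5 in AB0S libraries. ABPS replicate 2 was thus far below the other ABPS libraries and close to the AB0S libraries. msp-142 (chromosome II, 5797927 to 5798310) had 434, 227 and 593 in ABPS worms, against 169, 162 and 186 in AB0S worms. The median log2 ratio of the msp genes was 1.45, 0.38 and 1.68 in replicates 1, 2 and 3, and 1.65 without ABPS replicate 2. In the 6-library fit 29 of the 32 genes were called higher, and 30 were called without EV0S replicate 3.

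Other sperm genes followed. Of 56 genes, 26 were higher without overlap and 1 lower, with a median of 0.81 that was 1.30 without ABPS replicate 2. spe-11, which encodes a sperm protein supplied to the embryo, had 165, 94.2 and 217 in ABPS worms, against 84.6, 65.2 and 72.4 in AB0S worms. gsp-3, a sperm-specific protein phosphatase, had 534, 247 and 687 in ABPS worms, against 209, 197 and 208 in AB0S worms. nspd-5, of a nematode-specific sperm family, had 288, 161 and 385 in ABPS worms, against 108, 122.9 and 116 in AB0S worms. In each of these genes ABPS replicate 3 was the highest and ABPS replicate 2 the lowest of the ABPS libraries, as in the msp genes. Of the 11 sperm markers, 8 were higher without overlap, and their summed values were 2537, 1319 and 3418 in ABPS libraries, against 1178, 1058 and 1206 in AB0S libraries. alg-4, an Argonaute that acts in sperm development, had 488, 233 and 704 in ABPS worms, against 221, 200.4 and 222 in AB0S worms, and cyc-2.2, a cytochrome c gene, had 171, 98.2 and 223 in ABPS worms, against 86.5, 73.5 and 79.3 in AB0S worms, and ABPS replicate 2 was again the lowest ABPS library.

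The remaining germ line gave small differences, and the sign of the embryo medians changed with the library left out. The oocyte markers had a median log2 fold change of 0.01 over 12 genes, and the markers of the mitotic and meiotic germ line 0.03 over 10 genes, with 0 genes without overlap in either list. The median was 0.01 for eggshell and oocyte surface genes, 0.01 for RNA-binding regulators of oocytes and embryos, -0.01 for meiotic pairing and recombination genes and 0.01 for cell cycle genes. With the empty vector the same 4 medians were 0.24, 0.30, 0.21 and 0.16 (EVPS over EV0S), where EV0S replicate 3 was the lowest EV0S library for each list. mbk-2, a kinase of the oocyte-to-embryo transition, was the exception among the eggshell and oocyte surface genes, with 12172, 12139.6 and 12962 in ABPS worms, against 14884, 13432 and 14619 in AB0S worms. The median of the 10 embryo markers was -0.07 (-0.23 without ABPS replicate 2 and 0.07 without ABPS replicate 3), with 0 genes without overlap. Of 49 early zygotic embryo genes, 0 were higher and 2 lower without overlap, with a median of -0.15. That median was -0.28 without ABPS replicate 2 and 0.07 without ABPS replicate 3. The yolk protein genes had a median of 0.22 over 6 genes, of which 1 (vit-3) had no overlap. This median was 0.00 with quantile normalization and 0.20 with scaling by the trimmed mean of M values (TMM).

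**Figure D2:**
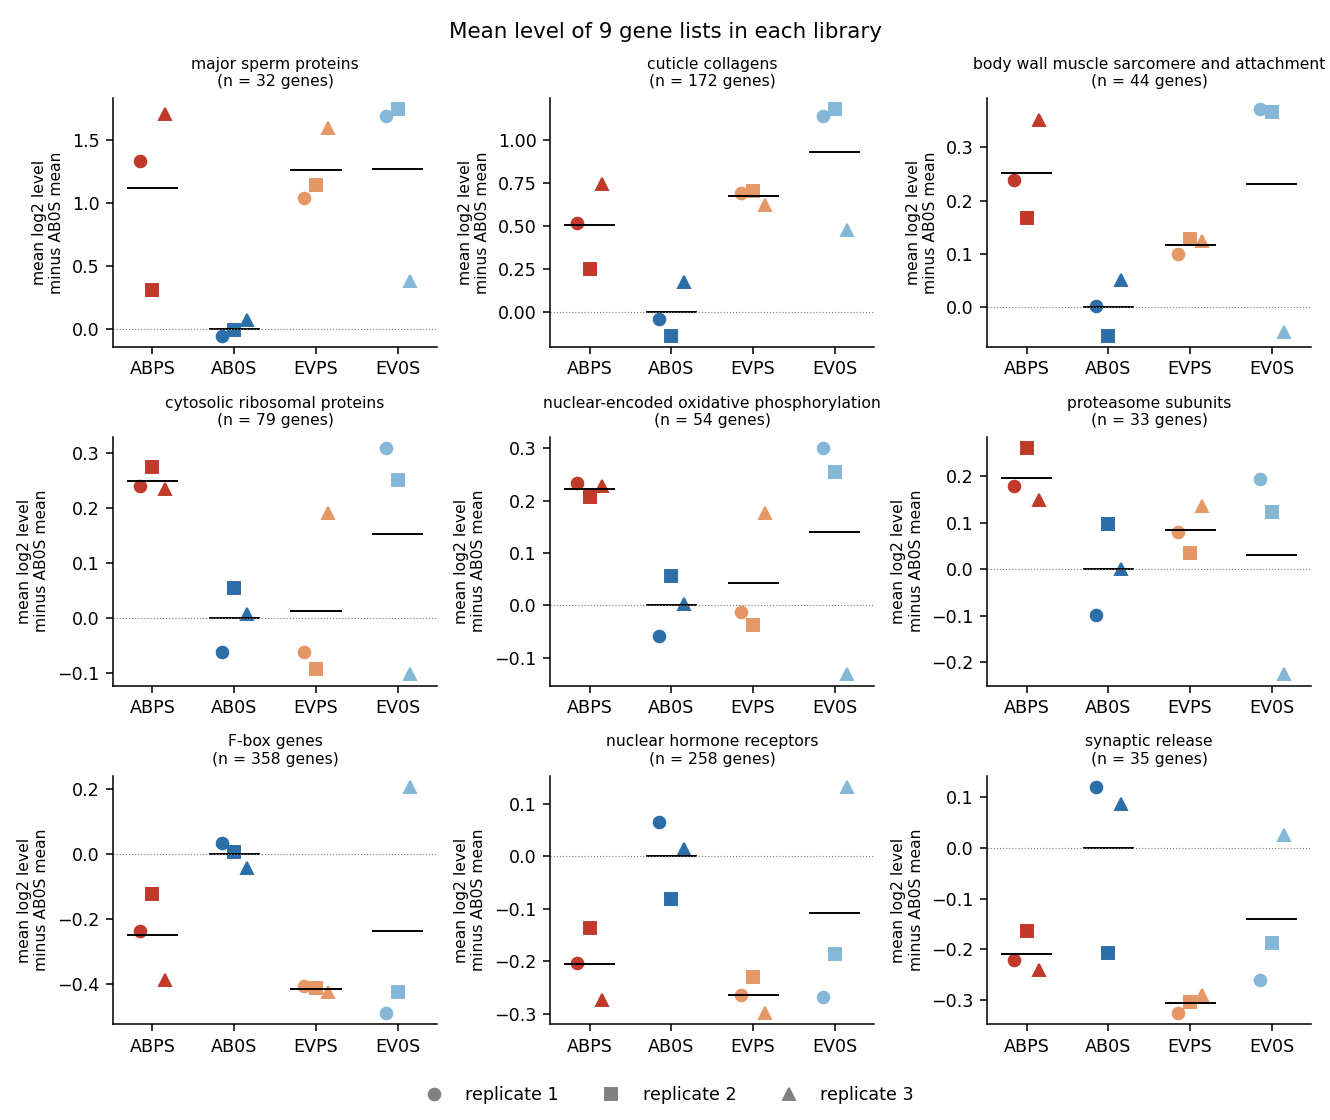
Mean log2 level of 9 gene lists in each of the 12 libraries, as the difference from the mean of the 3 AB0S libraries; symbols mark the replicate and bars the group mean. In the panel of the major sperm proteins, ABPS replicate 2 lies at 0.31 and ABPS replicates 1 and 3 at 1.34 and 1.71, and EV0S replicate 3 lies apart from EV0S replicates 1 and 2 in all 9 panels.

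The cuticle genes differed in both directions. Of 172 cuticle collagen genes, 77 were higher in ABPS worms without overlap and 9 were lower, and the median log2 fold change was 0.67. It was 0.67, 0.45 and 0.74 in replicates 1, 2 and 3. The 6-library fit called 92 collagen genes higher and 7 lower, and the fit without EV0S replicate 3 called 91 and 9. col-160 (chromosome V, 13200982 to 13202189) had 16084, 14642 and 17136 in ABPS worms, against 5282, 7140.2 and 6655 in AB0S worms. The log2 fold change of col-160 was 1.34 ± 0.36 (SE of the limma fit of 12 libraries), with an adjusted p of 0.0057 in the 6-library fit (limma). col-19, a marker of the adult hypodermis, had 18829.7, 13874 and 21400.1 in ABPS worms, against 8155, 9704 and 8921 in AB0S worms. The 8 hypodermis markers, of which col-19 is a member, had a median of -0.01, with 3 higher and 0 lower without overlap. bli-1, a collagen of the struts of the adult cuticle, had 1117, 497 and 1639 in ABPS worms, against 417, 348 and 433 in AB0S worms. Against this direction, col-121 had 205, 296 and 136 in ABPS worms, against 491, 338 and 415 in AB0S worms. The fold changes of the collagen genes spread from -1.72 to 1.47.

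rol-6 is both a cuticle collagen gene and the marker on the transgene, and reads of the plasmid and of the chromosomal gene (chromosome II, 8733050 to 8734239) cannot be told apart. It had 4339.8, 4140.3 and 4410.1 in ABPS worms, against 2949.7, 2959.6 and 3182 in AB0S worms. The log2 fold change was 0.50 ± 0.11 (SE), with an adjusted p of 0.279 in the limma fit of 12 libraries and 0.0057 in that of 6. In EVPS and EV0S worms the values of rol-6 were 7305, 7527 and 8002 and 9579, 9440.1 and 7109, all above those of every ABPS and AB0S library.

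Cuticlins and related zona pellucida proteins, which form the alae and other parts of the cuticle, had a median log2 fold change of -0.45 over 41 genes. Of these, 18 were lower in ABPS worms without overlap and 2 were higher. cutl-16 had 729, 689.9 and 620.0 in ABPS worms, against 1307, 939 and 1158 in AB0S worms. AB0S replicate 2 was the lowest AB0S library, and the median ratio of the list was -0.07 in replicate 2, against -0.72 and -0.56 in replicates 1 and 3. cut-4, a member with the other direction, had 150.2, 101 and 176 in ABPS worms, against 79.3, 74.8 and 91.9 in AB0S worms. With the empty vector the median of the list was -0.42.

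Genes of the body wall muscle, the tissue that carries Aβ, were higher in ABPS worms. Of 44 sarcomere and attachment genes, 26 were higher without overlap and 0 lower, the median log2 fold change was 0.32, and the 6-library fit called 24 higher. The median was 0.17 with quantile normalization and 0.30 with TMM scaling. tni-3, which encodes troponin I of body wall muscle, had 1788, 1583 and 1788 in ABPS worms, against 1192, 1175 and 1236 in AB0S worms. The log2 fold change of tni-3 was 0.52 ± 0.11 (SE of the limma fit of 12 libraries), with an adjusted p of 0.0083 in the 6-library fit (limma). mlc-2, a myosin light chain, had 12545, 12351 and 13066 in ABPS worms, against 9119.8, 9336 and 9730.1 in AB0S worms. act-3, an actin of muscle with near-identical copies, had 9758, 9134 and 9749 in ABPS worms, against 7039, 7145 and 7129 in AB0S worms. unc-54, the major myosin heavy chain, whose promoter also drives Aβ in these worms, had 50717, 43651 and 63163 in ABPS worms, against 38116, 38439.7 and 40197 in AB0S worms. unc-15, the paramyosin of thick filaments, had 27256, 23425 and 32424 in ABPS worms, against 20116, 19325 and 21690.4 in AB0S worms. ABPS replicate 2 was the lowest ABPS library for each of these 5 genes and lay above every AB0S library. Of the 8 markers of body wall muscle, 6 were higher without overlap, and the others were hlh-1 and myo-3. The markers of the pharynx, the other large muscle, had a median of -0.12 and of 0.02 without ABPS replicate 2, with 1 gene higher and 2 lower without overlap.

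Genes for protein synthesis differed little in size and evenly across genes. Of 79 cytosolic ribosomal protein genes, 75 were higher in ABPS worms without overlap and 0 lower, with a median log2 fold change of 0.25, and the 6-library fit called 77 higher. The mean log2 level of the list in ABPS libraries was 0.24, 0.27 and 0.23 above the AB0S mean, and the AB0S libraries themselves lay at -0.06, 0.05 and 0.01. rps-16, a protein of the small subunit, had 23343, 24095 and 22268 in ABPS worms, against 17885, 20415 and 18100.5 in AB0S worms. rpl-24.1, of the large subunit, had 37949, 38799.9 and 37037 in ABPS worms, against 29506, 32511 and 31419 in AB0S worms. These are short transcripts (median 520 bases). The median of the list was 0.12 after the trend with transcript length had been removed and 0.04 with quantile normalization, which forces the distribution of values to be the same in every library. With TMM scaling it was 0.23. Translation factors had a median of 0.12, with 28 of 43 higher and 1 lower without overlap. Among them ife-1, a cap-binding protein of the germ line, had 5187, 5133 and 4995 in ABPS worms, against 4157, 4527 and 4261 in AB0S worms. Mitochondrial ribosomal protein genes had a median of 0.12, with 37 of 67 higher and 0 lower without overlap. The 6-library fit called 2 of them higher, a smaller share than the 8.7% over all genes. Both lists also had smaller medians under other scalings, 0.06 for the translation factors with quantile normalization and 0.05 for the mitochondrial ribosomal proteins with the length trend removed. With TMM scaling the median of each list was 0.10.

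Nuclear genes of oxidative phosphorylation, which encode the respiratory complexes and ATP synthase, were higher in 44 of 54 cases without overlap and lower in 0. Their median log2 fold change was 0.24, the 6-library fit called 43 higher, and the median was 0.19 with quantile normalization and 0.17 with the length trend removed. atp-5, a subunit of ATP synthase, had 14125, 14295 and 13901 in ABPS worms, against 10932, 12247 and 11317 in AB0S worms. cyc-2.1, a cytochrome c gene, had 11399, 11727 and 11158 in ABPS worms, against 9186, 10085 and 9527 in AB0S worms. The ABPS libraries had mean log2 levels of 0.23, 0.21 and 0.23 above the AB0S mean for this list, so ABPS replicate 2 did not stand apart in it as it did in the sperm genes.

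**Figure D3:**
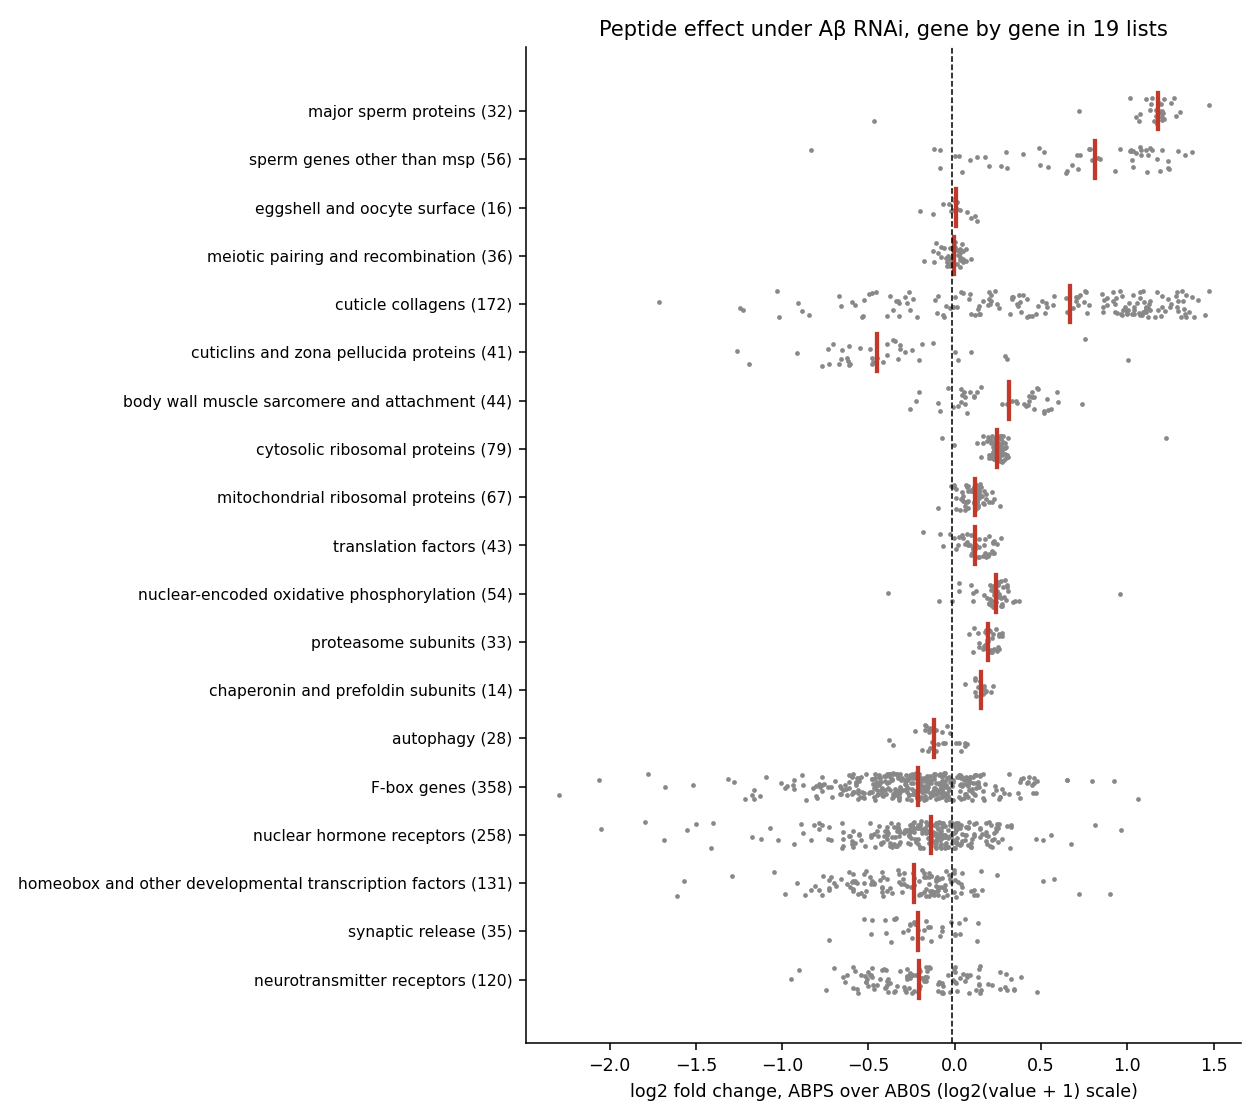
Log2 fold change (ABPS over AB0S) of every measured gene in 19 gene lists, with the number of genes in parentheses; each grey point is 1 gene, the red bar is the median of the list, and the dashed line is the median of all genes (-0.02). Ribosomal, proteasome and oxidative phosphorylation genes lie mostly in narrow bands above the dashed line, collagens spread on both sides of it, and F-box genes and nuclear hormone receptors lie mostly below it.

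The proteasome degrades ubiquitinated proteins. Of its 33 subunit genes, 27 were higher in ABPS worms without overlap and 0 lower, with fold changes of between 0.08 and 0.28 on the log2 scale and a median of 0.19. The 6-library fit called 30 of them higher. The median was 0.14 with quantile normalization and 0.16 with the length trend removed. pbs-5, a subunit of the catalytic core, had 6064, 6392 and 5781 in ABPS worms, against 4619, 5441 and 5024 in AB0S worms. pas-7, of the outer ring of the core, had 5996, 6392 and 5849 in ABPS worms, against 4893, 5746 and 5106 in AB0S worms. rpn-6.1, a lid subunit, had 5712, 6002 and 5661 in ABPS worms, against 4973, 5547 and 5302 in AB0S worms. AB0S replicate 2 was the highest AB0S library and ABPS replicate 2 the highest ABPS library for all 3 genes. The median with the empty vector was 0.06, but the median ratio of EVPS over EV0S was -0.11, -0.10 and 0.36 in replicates 1, 2 and 3.

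Chaperones differed by class. The chaperonin and prefoldin subunits, which fold actin and tubulin, had a median log2 fold change of 0.15, and 11 of 14 were higher without overlap. This median was 0.08 with quantile normalization and 0.14 with TMM scaling. cct-6 had 12342, 13249 and 12535 in ABPS worms, against 10691, 11838 and 11394 in AB0S worms. Of the 13 Hsp70, Hsp90 and Hsp60 genes, 7 were higher without overlap and the median was 0.17, but 0.00 with quantile normalization. With TMM scaling it was 0.15. hsp-1, the constitutive Hsp70 of the cytosol, had 110906, 110667 and 112724 in ABPS worms, against 90994, 102063 and 97273 in AB0S worms. The heat-inducible Hsp70 genes F44E5.4 and F44E5.5, which are near-identical copies, had 70.7, 38.6 and 60.2 in ABPS worms, against 34.3, 32.5 and 26.6 in AB0S worms for F44E5.4 and 97.6, 61.7 and 69.7 in ABPS worms, against 45.4, 47.3 and 39.8 in AB0S worms for F44E5.5. Of 11 small heat shock protein genes, 1 was higher without overlap (hsp-25, 2465, 2349.8 and 2492 in ABPS worms, against 1889, 1887 and 1962 in AB0S worms) and 2 were lower (hsp-12.1 and hsp-12.3). hsp-16.2, which responds to heat and to Aβ, had 362, 384 and 358 in ABPS worms, against 376, 424 and 339.6 in AB0S worms, so its groups overlapped.

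Autophagy and lysosomal genes had opposite directions. None of 28 autophagy genes was higher in ABPS worms without overlap and 15 were lower, with a median log2 fold change of -0.12. The 6-library fit called 4 of them lower. Besides atg-2, epg-7, a scaffold of autophagy of aggregates, had 1745, 1924 and 1778 in ABPS worms, against 2076, 2066 and 2066 in AB0S worms. unc-51, the kinase that starts autophagosome formation, had 1860.5, 1948 and 1894 in ABPS worms, against 2238, 1955 and 2208 in AB0S worms, and the gap between its lowest AB0S value and its highest ABPS value was small. hlh-30, the relative of mammalian TFEB, had 2670.4, 2728 and 2673 in ABPS worms, against 3203, 2742 and 2994 in AB0S worms. Of 59 genes for lysosomal proteases, the V-ATPase and the lysosomal membrane, 28 were higher without overlap and 5 lower, with a median of 0.14 that was 0.09 with quantile normalization. Most of the higher genes were V-ATPase (vha) genes, looked up after the values had been seen, of which 17 of 20 were higher and 0 lower. vha-5, a membrane subunit of the V-ATPase proton pump, had 4537, 4637 and 4724 in ABPS worms, against 3303, 3232 and 3314 in AB0S worms. vha-8, a stalk subunit, had 10425, 10929 and 10779 in ABPS worms, against 8511, 8984 and 9059 in AB0S worms. cpr-6, a cathepsin B-like protease, had 17227, 19417 and 16746 in ABPS worms, against 12042, 16299 and 13638 in AB0S worms, while its relative cpr-1 had 10161, 10037 and 9679.9 in ABPS worms, against 13898, 10597 and 12695 in AB0S worms.

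F-box proteins select the substrates of SCF ubiquitin ligases, and worms have many of them. Of 358 F-box genes, 83 were lower in ABPS worms without overlap and 6 were higher, with a median log2 fold change of -0.21. Many have low values and related sequences, and the 6-library fit called 23 lower and 2 higher. fbxa-182 had 179, 158 and 163 in ABPS worms, against 268, 211 and 268 in AB0S worms. fbxa-146 had 42.3, 37.7 and 34.2 in ABPS worms, against 65.1, 84.3 and 71.8 in AB0S worms. fbxa-72 went the other way, with 291, 347 and 304 in ABPS worms, against 149, 210.4 and 186 in AB0S worms. The median ratio was -0.25, -0.12 and -0.31 in replicates 1, 2 and 3. Of 102 genes with MATH or BTB domains, which serve as substrate adaptors of cullin ligases, 22 were lower and 3 higher without overlap, with a median of -0.13. math-26 had 353, 349.5 and 382 in ABPS worms, against 505, 471 and 482 in AB0S worms.

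Regulatory genes were lower in ABPS worms more often than higher. Of 258 nuclear hormone receptor genes, 68 were lower without overlap and 9 higher (median -0.14). Their median ratio was -0.22, -0.02 and -0.18 in replicates 1, 2 and 3. The 6-library fit called 13 lower, a share close to the 4.01% over all genes, and 1 higher, against 8.7% over all genes. nhr-99 had 45.3, 36.3 and 57.3 in ABPS worms, against 78.7, 91.6 and 73.0 in AB0S worms. nhr-8, a regulator of xenobiotic and cholesterol metabolism, went the other way, with 478, 419 and 480.4 in ABPS worms, against 411, 319.5 and 391 in AB0S worms. Of 131 homeobox and other developmental transcription factor genes, 38 were lower and 2 higher without overlap, with a median of -0.24 that was -0.37 without ABPS replicate 2. Their median ratio was -0.33, -0.03 and -0.39 in replicates 1, 2 and 3. php-3, a posterior Hox gene, had 175, 177 and 199.95 in ABPS worms, against 250.4, 238 and 234 in AB0S worms.

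Signalling pathway genes were also lower more often than higher without overlap. Of 25 Notch pathway genes, 7 were lower and 1 higher, with a median of -0.09 (-0.06 with the length trend removed). The 6-library fit did not share this direction for the Notch genes, as it called 0 lower and 1 higher. Of 28 Wnt pathway genes, 11 were lower without overlap and 1 higher, and the 6-library fit called 6 lower and 1 higher. cam-1, a Ror receptor tyrosine kinase that binds Wnt, had 3338, 3376 and 3225 in ABPS worms, against 4076, 3785 and 4029 in AB0S worms, and the Frizzled receptor gene cfz-2 had 487, 550.1 and 407 in ABPS worms, against 792, 651 and 715 in AB0S worms. Of 21 TGF-beta pathway genes, 8 were lower and 2 higher without overlap, and the 6-library fit called 2 lower and 1 higher. lon-1, a hypodermal gene that limits body length and is repressed by the pathway, had 2111, 2507 and 1800.0 in ABPS worms, against 1307, 1649.8 and 1423 in AB0S worms, while sma-9, a transcription factor of the pathway, had 2688, 2766 and 2939.8 in ABPS worms, against 3724, 3184 and 3468 in AB0S worms. Of 21 p38 and JNK kinase pathway genes, 6 were lower and 0 higher without overlap. The 6-library fit called 4 of these 21 genes lower and 0 higher. tir-1, the adaptor upstream of p38 signalling in immunity, had 1624, 1488 and 1683 in ABPS worms, against 2603, 1829.8 and 2342 in AB0S worms, and vhp-1, a phosphatase that acts on these kinases, had 2215, 2019 and 2114 in ABPS worms, against 2825, 2414 and 2641 in AB0S worms. Of 28 genes of the TOR complex and its regulators, 8 were lower and 2 higher without overlap, and the median was -0.05 (-0.01 with the length trend removed). The 6-library fit called 2 of these 28 genes lower and 0 higher. flcn-1, folliculin, had 3165, 3336 and 3408 in ABPS worms, against 4162, 3691 and 4133 in AB0S worms. The insulin/IGF pathway had 4 genes lower and 1 higher without overlap of 21, with a median of -0.04 (-0.02 with the length trend removed). Its share of lower genes was near the 14.5% over all genes, and the 6-library fit called 2 lower and 1 higher. daf-16, the FOXO transcription factor of the pathway, had 4747, 4753 and 5145 in ABPS worms, against 5113, 4704 and 5087 in AB0S worms, and skn-1, the Nrf transcription factor, had 7412, 7148 and 7999.8 in ABPS worms, against 7869, 7464 and 7894 in AB0S worms.

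Genes of neurons were lower in ABPS worms than in AB0S replicates 1 and 3, while AB0S replicate 2 lay close to the ABPS libraries. Of 35 synaptic release genes, 9 were lower without overlap and 0 higher, with a median log2 fold change of -0.22 that was -0.31 without AB0S replicate 2. unc-2, a presynaptic calcium channel subunit, had 504, 549 and 525 in ABPS worms, against 1058, 686 and 913 in AB0S worms. unc-31, required for dense core vesicle release, had 185, 191 and 187 in ABPS worms, against 326, 211 and 289 in AB0S worms. unc-64, syntaxin, had 814, 816 and 774 in ABPS worms, against 997, 877 and 1012 in AB0S worms. In all 3 genes AB0S replicate 2 was the lowest AB0S library, and the mean log2 level of the list in the AB0S libraries was 0.12, -0.21 and 0.09 relative to their mean, against -0.22, -0.16 and -0.24 in the ABPS libraries. Of 120 neurotransmitter receptor genes, 24 were lower and 7 higher without overlap (median -0.21). The 6-library fit did not share this direction, as it called 2 lower and 3 higher. The median ratio of these genes was -0.38, 0.10 and -0.33 in replicates 1, 2 and 3. gbb-1, a GABA-B receptor subunit, had 174, 190.1 and 188 in ABPS worms, against 260.4, 217 and 248 in AB0S worms. lgc-34, a ligand-gated ion channel subunit, went the other way, with 416, 389.8 and 391 in ABPS worms, against 303, 314 and 339.8 in AB0S worms. Of the 10 neuron markers, 5 were lower and 0 higher without overlap, and their summed values overlapped, at 10279, 10514 and 9759 in ABPS libraries and 11289, 9586 and 11007 in AB0S libraries. The neuropeptide and insulin-like genes had a median of 0.06, with 14 of 134 higher and 9 lower without overlap, and nlp-77 had 14309, 16044 and 13308 in ABPS worms, against 8028, 9533 and 9087 in AB0S worms.

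Genes of immunity, detoxification and lipids were mixed. C-type lectin genes had a median of -0.02, with 30 of 196 higher and 30 lower without overlap, which is close to the shares over all genes. clec-1 had 5023, 5713 and 4226 in ABPS worms, against 2992, 3626 and 3196 in AB0S worms, and clec-71 had 72.5, 76.1 and 70.6 in ABPS worms, against 158, 99.8 and 143 in AB0S worms. Of the 25 genes with CUB-like domains or a known response to infection, 6 were lower and 1 was higher without overlap, dod-24 with 626, 596 and 644 in ABPS worms, against 983, 811 and 840.4 in AB0S worms and dod-22 with 744, 638 and 876 in ABPS worms, against 971, 999 and 1016 in AB0S worms. Of 90 lysozyme, saposin and antimicrobial peptide genes, 21 were higher and 11 lower without overlap, and their median was 0.09, but -0.08 with the length trend removed. nlp-27, an antimicrobial peptide gene of the hypodermis, had 1446, 1787 and 1419.5 in ABPS worms, against 819, 1059 and 942 in AB0S worms, and spp-8, a saposin-like gene, had 1144, 1282 and 1079.9 in ABPS worms, against 1344, 1473 and 1375 in AB0S worms. Of the glutathione transferase and UDP-glucuronosyltransferase genes, 31 were higher and 12 lower without overlap (median 0.12). ugt-62 had 2327, 2534 and 2456 in ABPS worms, against 1271, 1781 and 1508 in AB0S worms. Among 18 superoxide dismutase, catalase and peroxiredoxin genes, 7 were higher and 0 lower without overlap, with ctl-2, the peroxisomal catalase, at 1575, 1541 and 1607 in ABPS worms, against 1328, 1242 and 1324 in AB0S worms. Of 98 lipase, lipid binding and beta-oxidation genes, 27 were higher and 8 lower without overlap. lipl-4, a lysosomal lipase linked to lifespan, had 89.1, 98.7 and 78.3 in ABPS worms, against 54.1, 52.2 and 49.2 in AB0S worms. Of 20 fatty acid desaturase and elongase genes, 5 were higher and 1 lower without overlap, with a median of 0.02, and the lower gene, the desaturase gene fat-3, had 3795, 4064 and 3529 in ABPS worms, against 4956, 4364 and 4731 in AB0S worms.

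Of the genes that the study names, a list of 22 was followed, and most showed no separation of ABPS from AB0S worms. The study reports changes of several, txt-13 and fbxa-123 among them, in worms with high Aβ levels, which is not the comparison made here. With the empty vector, the 12-library fit called 6 of the 22 higher and 6 lower in EVPS than in EV0S worms. Between ABPS and AB0S worms, 1 of the 22 was higher without overlap (rpn-6.1) and 6 were lower, and the median log2 fold change was -0.08. txt-13, of transcellular chaperone signalling, had 69.7, 69.7 and 63.3 in ABPS worms, against 65.9, 73.8 and 60.5 in AB0S worms. fbxa-218, an F-box gene, had 16.25, 20.2 and 13.3 in ABPS worms, against 17.2, 11.7 and 18.2 in AB0S worms. In both genes the groups overlapped. fbxa-123, another F-box gene, had 247, 227 and 239 in ABPS worms, against 269, 285 and 273 in AB0S worms, and asp-12, an aspartic protease, had 410.3, 498 and 457 in ABPS worms, against 599, 538 and 592 in AB0S worms, both without overlap. hsf-1, the heat shock transcription factor, had 3515, 3339 and 3666 in ABPS worms, against 3787, 3646 and 3891 in AB0S worms. apl-1, the worm relative of the human amyloid precursor protein and not in that list, had 8184, 8831 and 8257 in ABPS worms, against 8831, 7059 and 8456 in AB0S worms.

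Whether the peptide had another effect here than in worms with the empty vector was tested as the difference of both effects (ABPS over AB0S, minus EVPS over EV0S) in the 12-library fit. limma called 116 genes (0.608%) with a higher effect under Aβ RNAi and 453 genes (2.37%) with a lower one, 569 (2.98%) in all, at an adjusted p below 0.1. The same fit called 1051 genes (5.51%) higher and 348 (1.82%) lower in EVPS than in EV0S worms, and both effects share no library. In 448 of the 569 genes the fold change was below 0 under Aβ RNAi and above 0 with the empty vector. These calls were not stable. At an adjusted p below 0.05, 0 genes passed, without EV0S replicate 3 the count was 4908, and it was 0 when any 1 of 9 other libraries was left out (all but ABPS replicate 3 and EVPS replicate 3). Across 15516 genes with a mean of at least 10, the correlation of both effects was 0.189, which is over genes and not over replicates.

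Several of the leading genes had such a difference. Y51F10.7 had 2100.1, 2041 and 1956 in ABPS worms, against 1704, 1575 and 1636 in AB0S worms, and with the empty vector it had 1316, 1376 and 1409 in EVPS worms, against 1863, 1939.5 and 2026 in EV0S worms. The difference was 0.82 ± 0.09 on the log2 scale (SE; limma, adjusted p = 0.054). dod-3 had 194, 186 and 233 in EVPS worms, against 147, 128.5 and 117 in EV0S worms, so that it was lower with the peptide under Aβ RNAi and higher with the peptide without it (difference -1.33 ± 0.20, limma, adjusted p = 0.071). htas-1, the sperm histone, had 74.9, 88.1 and 94.3 in EVPS worms, against 111.9, 131 and 118 in EV0S worms. Its difference was 1.58 ± 0.29 (SE; limma, adjusted p = 0.071). cnc-8 and ost-1 had differences of 0.74 and 0.60, and clec-70 of -1.10. None of the 32 msp genes and 3 of the 172 collagen genes were called with a higher effect under Aβ RNAi. The median of the msp genes was 1.18 under Aβ RNAi and -0.03 with the empty vector, and that of the ribosomal protein genes was 0.25 and -0.14. Both medians with the empty vector combine replicates of opposite sign. In replicates 1, 2 and 3 they were -0.72, -0.60 and 1.23 for the msp genes. For the ribosomal protein genes they were -0.36, -0.33 and 0.29. For the msp genes, the levels relative to the AB0S mean were 1.34, 0.31 and 1.71 in ABPS, 1.04, 1.15 and 1.59 in EVPS and 1.69, 1.75 and 0.38 in EV0S replicates 1, 2 and 3, so the 3 AB0S libraries were the lowest of the 12, next to ABPS replicate 2 and EV0S replicate 3.

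**Figure D4:**
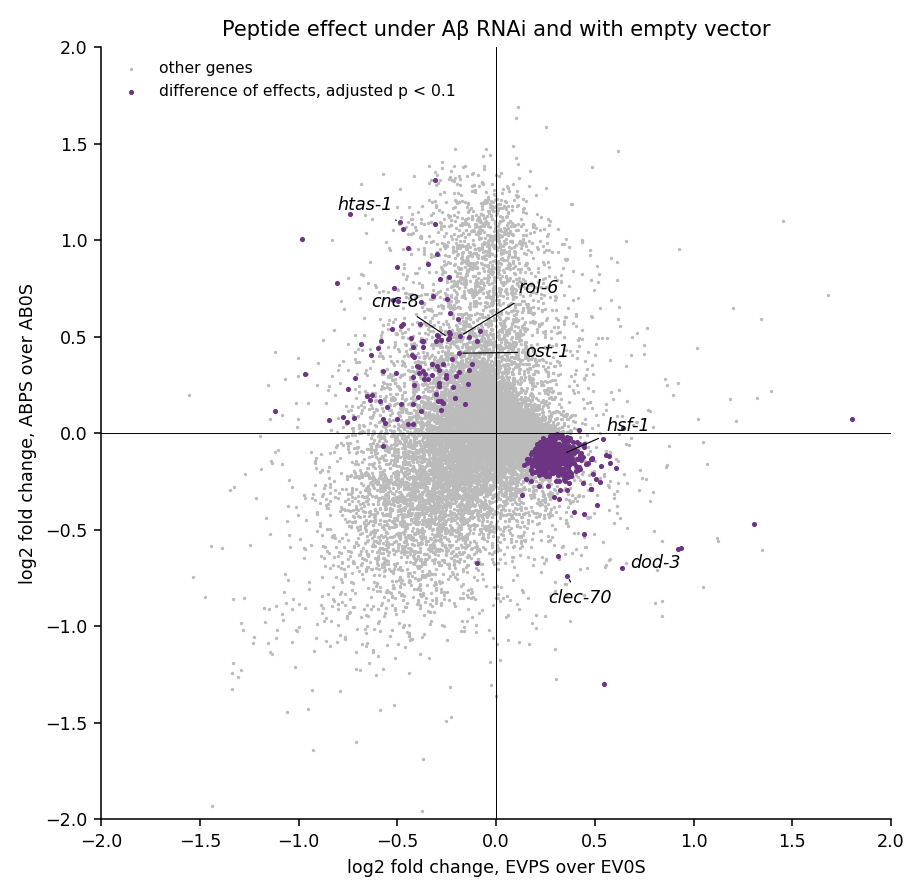
Log2 fold change of ABPS over AB0S (vertical) against that of EVPS over EV0S (horizontal) for 15516 genes with a mean of at least 10, of which 3 lie outside the axes; purple points are genes whose effects differ at an adjusted p below 0.1. Most purple points form a cluster slightly below 0 on the vertical and above 0 on the horizontal axis, and dod-3 and htas-1 lie on opposite sides.

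The 3 replicates did not show the comparison to the same extent. Across 15516 genes the log2 ratio of ABPS over AB0S had an SD of 0.515 in replicate 1, 0.321 in replicate 2 and 0.550 in replicate 3, and the correlation across genes was 0.773 between replicates 1 and 3, 0.323 between 1 and 2 and 0.243 between 2 and 3. The ratio also varied with transcript length. Among 10 bins of genes by the length of the longest transcript, the median log2 fold change was 0.10 in the bin of the shortest genes (median 444 bases), -0.07 in that of the longest (median 3890.5 bases), and between these in the others. The corresponding medians with the empty vector were -0.13 and 0.06. With the length trend removed, 2243 genes were higher and 3289 lower in ABPS worms without overlap, so that the share of higher genes among them was 40.5%, against 50.6% of the values as deposited. The part of length in the counts over lists was not tested beyond the medians given above.

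**Figure D5:**
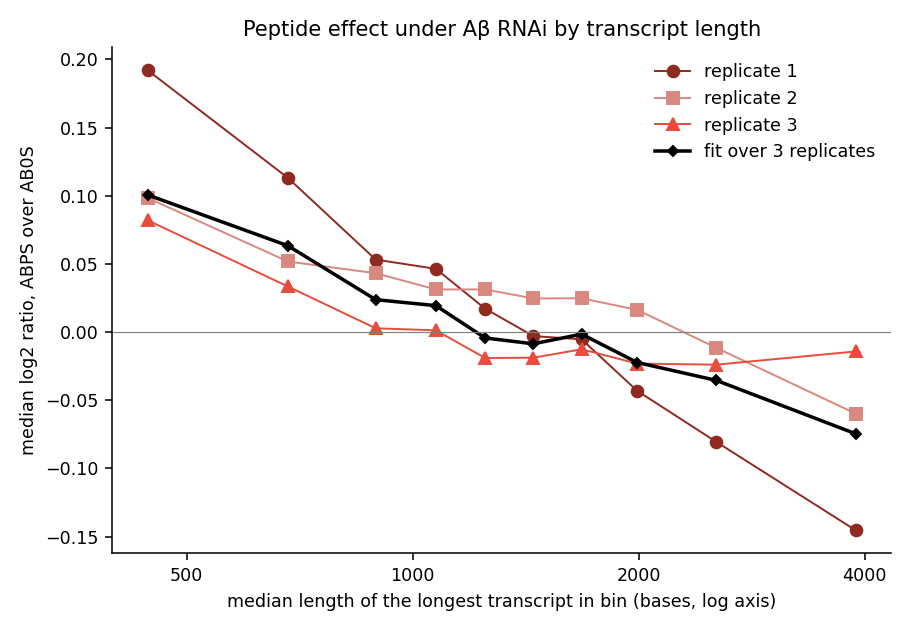
Median log2 ratio of ABPS over AB0S in 10 bins of genes by the length of the longest transcript (log axis), for each replicate and for the fit over 3 replicates. All 4 lines are highest in the bin of the shortest transcripts, and the fitted line is at 0.10 in that bin and at -0.07 in the bin of the longest.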

How the data were processed

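Reads of stranded polyA libraries were trimmed with cutadapt 2.10, aligned to WBcel235 with TopHat2 2.1.1 and counted per gene with HTSeq 2.01 by the authors, per the labels. The deposited values are counts normalized by the authors with DESeq2 1.36.0 and then batch-corrected for the repeats, by a method not given in the sources used here. They are not whole reads, and 307 of 229068 values lie below 0 (lowest -0.64). Whether counting used the strand is not stated.

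Negative entries were replaced by 0. A linear model of log2(value + 1) over all genes and 12 libraries was estimated by limma 3.58.1 (R 4.3.3, eBayes with trend), with group and replicate number in the model. The deposited values already carried the authors' correction for the repeats, and the study does not state a block in its own test. P-values were two-sided and Benjamini-Hochberg adjusted over 19089 genes, and genes were called below 0.1, the threshold of the study. The same model without the EVPS and EV0S libraries is the 6-library fit. The p-values of the 12-library fit rest on the spread within all 4 groups, EVPS and EV0S included. Those of the 6-library fit rest on the spread within ABPS and AB0S. In both fits eBayes draws the spread of each gene toward a trend over genes. Each group had 3 repeats, and exact permutation of 3 against 3 libraries reaches no p below 0.1.

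Genes were named by rule: (a) per direction, the 12 smallest p among genes without overlap and with a mean of at least 10; (b) the 8 largest fold changes at a mean of at least 20; (c) up to 3 members per list and direction by p, and any member of lists of up to 15 genes; (d) genes the study names, unc-54, rol-6 and apl-1; (e) the 4 smallest p per direction for the difference of the effects. The 68 gene lists, by symbol, and the comparison itself were chosen with earlier results of these data known, and gene lists were given no test. Positions and lengths come from Ensembl release 115 (WBcel235), which holds 19085 of the genes. Alternatives changed 1 choice at a time, except for the 6 libraries without the block, which changed 2: pseudocounts of 0.1 and 5, minimum means of 1 and 10, values below 0 kept, no replicate block, the 6 libraries alone, TMM (trimmed mean of M values) or quantile scaling, eBayes without trend or robust, a threshold of 0.05, and each library left out. Removing the length trend (loess, span 0.3) and leaving out ABPS replicate 2 together with EV0S replicate 3 were chosen after seeing the data.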

Additional observations from a re-analysis of the deposited data

Results flagged for a closer look

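For 23 genes described or covered by the naming rule, the effect of the peptide differed between Aβ RNAi and empty vector in the 12-library fit (limma, adjusted p below 0.1). No cause was weighed, and the calls were lost when any 1 of 9 libraries was left out. In the values that follow, the difference is the log2 fold change of ABPS over AB0S minus that of EVPS over EV0S.

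A higher effect under Aβ RNAi was found for the sperm histone gene htas-1 (1.58), R07E5.4 (1.23), the lipase-related gene lips-17 (0.94), Y51F10.7 (0.82), C15F1.1 (0.80), F41D9.2 (0.79), the antimicrobial peptide gene cnc-8 (0.74), the collagen gene rol-6 (0.69), C05D9.3 (0.63), D2092.4 (0.61) and the SPARC gene ost-1 (0.60). In each of these 11 genes the fold change was above 0 under Aβ RNAi and below 0 with the empty vector.

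A lower effect under Aβ RNAi was found for dod-3 (-1.33), the C-type lectin gene clec-70 (-1.10), T16G1.7 (-0.95), the nuclear hormone receptor gene nhr-181 (-0.76), Y4C6A.3 (-0.73), the F-box gene fbxa-123 (-0.70), T23B12.6 (-0.58), T21C9.13 (-0.57), F35E12.9 (-0.57), cup-15 (-0.54), R05H11.1 (-0.53) and the heat shock factor gene hsf-1 (-0.45). hsf-1 had 3515, 3339 and 3666 in ABPS worms, against 3787, 3646 and 3891 in AB0S worms, and with the empty vector it had 4031, 4165 and 3833 in EVPS worms, against 3148, 3243 and 3111 in EV0S worms. nhr-181 had 149, 149 and 184 in ABPS worms, against 221, 177 and 189 in AB0S worms, and with the empty vector it had 206, 214 and 203 in EVPS worms, against 150.3, 149.5 and 146 in EV0S worms.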

How the results depend on the processing

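The 12-library fit called 0 genes between ABPS and AB0S worms also with pseudocounts of 0.1 and 5, minimum means of 1 and 10, TMM scaling, eBayes without trend or robust, values below 0 kept, a threshold of 0.05 and the length trend removed, and it called 1 with quantile normalization. With no replicate block it called 7 genes, 3 higher and 4 lower. Deviations of same-numbered ABPS and AB0S libraries correlated at -0.09, 0.01 and 0.08 across genes, but the deposited values were already corrected for the repeats, so these correlations cannot bear on pairing. The 6-library fit called 2427 genes with the block and 2312 without, with 2766 higher and 2051 lower at p below 0.05 with the block and 2219 lower without. Leaving out 1 library gave 0 to 3085 called genes, the highest without EV0S replicate 3 and 720 without ABPS replicate 2. It gave 768 to 2859 genes higher and 425 to 2139 lower at p below 0.05, and 3278 to 4294 higher and 3338 to 4929 lower without overlap, where fewer libraries make separation easier. Without both ABPS replicate 2 and EV0S replicate 3, 3433 genes were called, 2833 were higher and 2218 lower at p below 0.05, and 4294 and 4232 were without overlap. The difference of both effects was called in 909 genes with a minimum mean of 10, 1785 with no replicate block, 1304 with TMM scaling, 922 with quantile normalization, 1189 with the length trend removed, and 0 without the eBayes trend or at 0.05. It was called in 0 to 4908 genes with 1 library left out and in 5333 without both ABPS replicate 2 and EV0S replicate 3. The cause of these shifts was not tested. The 47 values recomputed for single genes (those with the smallest p or the largest fold change, and the leading differences of both effects) changed sign in 0 cases, and the other genes named from lists were recomputed only within the list medians. Of 69 medians, 23 did under at least 1 setting, all of them between -0.15 and 0.12 before, among them intestine markers (0.12, and -0.08 without ABPS replicate 3) and neuropeptide genes (0.06, and -0.03 without ABPS replicate 2). Because the depth is unknown, differences in genes with low values, such as many F-box genes, cannot be set against counting error.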

Other observations

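Further gene families were looked up after the values had been seen, and their counts are descriptions only. The far genes, which encode fatty acid and retinol binding proteins secreted by nematodes, had 6 of 8 members higher and 1 lower in ABPS than in AB0S worms without overlap, with a median log2 fold change of 0.40. The V-ATPase genes (vha), which the lysosomal list also holds, had 17 of 20 members higher and 0 lower, with a median of 0.24, and the aldehyde dehydrogenase genes (alh) 6 of 13 higher and 0 lower, with a median of 0.15. The nspc genes, a nematode-specific family of short, similar copies among which reads may be split, had 9 of 15 members higher and 0 lower, with a median of 0.41. With the empty vector the medians of far, vha, alh and nspc were 0.05, -0.05, -0.05 and 0.01.

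In the other direction, the guanylyl cyclase genes (gcy), many of which act in sensory neurons, had 12 of 32 members lower and 1 higher in ABPS worms without overlap, with a median log2 fold change of -0.36. The dyf, che and osm genes, named for defects of sensory cilia, chemotaxis and osmotic avoidance, had 11 of 31 lower and 1 higher, with a median of -0.44. The cadherin-related genes had 6 of 12 lower and 0 higher, with a median of -0.45. The zinc finger genes (ztf) had 10 of 25 lower and 0 higher, with a median of -0.07. With the empty vector the medians of gcy, of dyf, che and osm together, of the cadherins and of ztf were -0.14, -0.36, -0.18 and 0.05.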
